A study of Mesocricetus auratus with 6 samples.

Results

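The 10 genes described here encode carriers that move amino acids across the cell membrane: Slc3a2, Slc7a1, Slc7a5, Slc7a6, Slc7a11, Slc1a4, Slc1a5, Slc38a1, Slc38a2 and Slc38a4. They were chosen by name, with earlier results of these data known. Every probe set whose platform annotation gives 1 of these symbols and no other was used. That gave 14 probe sets for 10 of the 12393 gene symbols measured. The tissue was the uterus of untreated pregnant Syrian golden hamsters at day 5, with 3 arrays of implantation sites, where a blastocyst has attached, and 3 arrays of interimplantation sites, the uterine segments between them. The design text says that the RNA sets came from 3 different animals. Each RNA was prepared from a whole site and hybridised to an Affymetrix mouse array, so the values mix all cell types of the uterine wall, and fewer cells of a type and less RNA per cell cannot be told apart.

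Amino acid carriers work as a system. Slc3a2 encodes the heavy chain 4F2hc (CD98), a glycoprotein that brings light chains such as those encoded by Slc7a5, Slc7a6 and Slc7a11 to the cell surface; the light chain does the transport. Exchangers of this kind trade 1 amino acid for another, while sodium-coupled carriers of the Slc38 family load the cell with the small neutral amino acids, glutamine among them, that the exchangers spend. In pregnancy these carriers supply growing uterine and placental tissue, and leucine taken up through Slc7a5 is an input to the growth kinase complex mTORC1.

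No difference between the implantation and the interimplantation site passed the test in any of the 14 probe sets. In the limma fit at a Benjamini-Hochberg adjusted p under 0.05, 0 of the 14 were higher, against 1.26% of all 22626 probe sets tested, and 0 were lower, against 1.05% of all (2.31% together). Their adjusted p-values ran from 0.308 to 0.965. The differences, implantation minus interimplantation on the log2 scale, ran from −0.22 to 0.11 with a median of −0.031, beside a median of −0.020 over all probe sets. At an unadjusted p under 0.05 there was 1 of the 14, against 14.0% of all probe sets. With so small a background, 0 of 14 is not a result that sets these genes apart from others.

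The 95% intervals of all 14 differences lay within 1.5-fold in either direction, as did 95.6% of all probe sets, and 4 of the 14 lay within 1.2-fold, as did 34.0% of all. The interval that reached lowest allowed a 1.34-fold decrease, for a probe set of Slc38a4, and the one that reached highest a 1.26-fold increase, for Slc38a1. The standard errors (SE) of the 14 differences ran from 0.079 to 0.11, with a median of 0.090 beside 0.093 over all probe sets. The fit draws the variance of each probe set towards a common value, so this nearness is in part built in. These bounds hold for probe set signals measured against the whole of the array, since RMA makes the arrays' distributions alike. Mouse probes can bind hamster RNA less well, which can shrink a difference, so a narrow interval does not bound the change of the transcript itself.

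**Figure D1:**
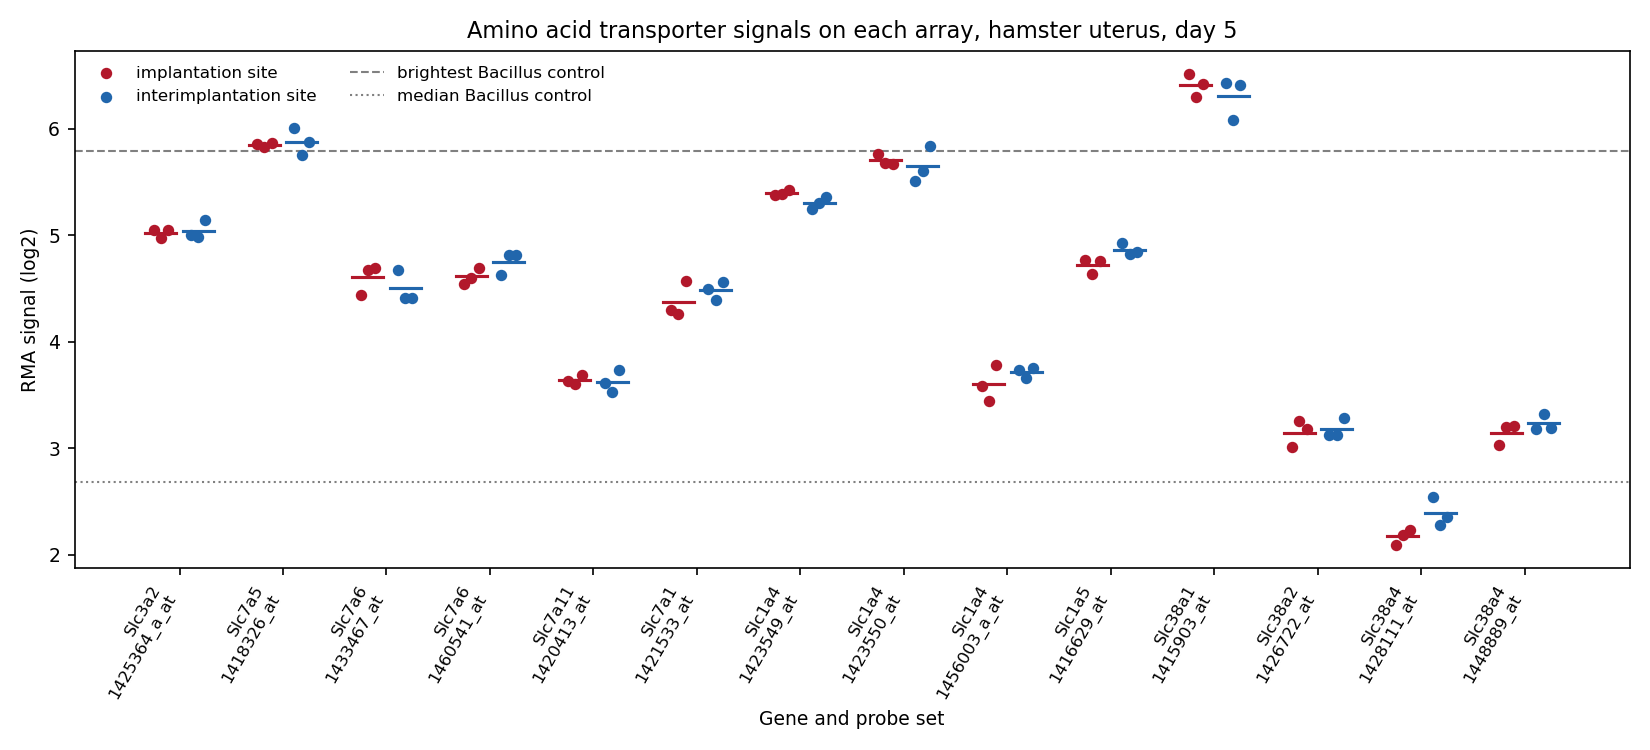
Log2 RMA signal (vertical axis) of the 14 transporter probe sets (horizontal axis), with a point for each array and a bar for the group mean (n = 3). The groups lie at nearly the same height in every probe set, and the mean signals of 2 probe sets, for Slc7a5 and Slc38a1, are above the brightest Bacillus control (dashed, 5.79).

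The heavy chain Slc3a2 (1425364_a_at) read 5.05, 4.98 and 5.05 on implantation arrays 1, 2 and 3, and 5.00, 4.98 and 5.14 on interimplantation arrays 1, 2 and 3. The groups overlapped, and the difference was −0.015 (SE 0.083, limma adjusted p = 0.960, 95% interval −0.20 to 0.17), which allows a 1.15-fold decrease or a 1.12-fold increase.

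Slc7a5, the light chain LAT1 that exchanges large neutral amino acids such as leucine, read 5.86, 5.83 and 5.87 at the implantation site (1418326_at). The interimplantation arrays read 6.003, 5.75 and 5.88, so the lowest and the highest array of the 6 both belonged to that group. The difference was −0.029 (SE 0.088, limma adjusted p = 0.924, 95% interval −0.22 to 0.16). For the heavy chain and this light chain alike, the group means thus lay within a few hundredths of a log2 unit of each other. On the deposited values their intervals allow changes of at most 1.17-fold. With the scaling to hybridisation controls described below, the intervals were wider.

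Slc7a6, the light chain that exchanges cationic for neutral amino acids, had 2 probe sets, and they pointed in opposite directions. The first (1433467_at) read 4.44, 4.68 and 4.70 at the implantation site and 4.68, 4.41 and 4.42 between the sites, a difference of 0.10 (SE 0.10, limma adjusted p = 0.725). The second (1460541_at) read 4.55, 4.60 and 4.70 at the site and 4.63, 4.82 and 4.81 between the sites, a difference of −0.14 (SE 0.088, limma adjusted p = 0.539). The groups overlapped in both, and neither sign was larger than its interval (−0.12 to 0.33 and −0.33 to 0.053).

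Slc7a11, the light chain xCT that imports cystine in exchange for glutamate and so feeds glutathione synthesis, read 3.63, 3.60 and 3.68 at the implantation site and 3.61, 3.53 and 3.74 between the sites (1420413_at). Its difference of 0.014 was the smallest of the 14 in size (SE 0.085, limma adjusted p = 0.965, 95% interval −0.17 to 0.20).

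Slc7a1 encodes the cationic transporter CAT1, which takes up arginine, lysine and ornithine without a heavy chain. It read 4.30, 4.26 and 4.57 at the implantation site and 4.50, 4.39 and 4.56 between the sites (1421533_at). The highest and the lowest array were both implantation arrays, and the difference of −0.11 (SE 0.099, limma adjusted p = 0.699, 95% interval −0.32 to 0.11) was smaller than the SD of the implantation arrays (0.17, n = 3).

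Among the sodium-dependent neutral exchangers, Slc1a4 (ASCT1, for alanine, serine and cysteine) was measured by 3 probe sets with differences from −0.11 to 0.096. The probe set 1423549_at read 5.38, 5.39 and 5.43 at the implantation site and 5.24, 5.30 and 5.36 between the sites. The groups did not overlap there, with a gap of 0.022, and the means differed by 0.096 (SE 0.079, limma adjusted p = 0.663). The probe set 1423550_at read 5.77, 5.68 and 5.67 against 5.51, 5.60 and 5.84, with the highest array between the sites (difference 0.054, SE 0.097, limma adjusted p = 0.861).

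The third Slc1a4 probe set (1456003_a_at) read 3.58, 3.45 and 3.78 at the site and 3.74, 3.66 and 3.75 between the sites, with a negative difference (−0.11, SE 0.096, limma adjusted p = 0.669). On the deposited values the 3 probe sets therefore disagreed in sign, and each interval included 0. Slc1a5 (ASCT2), which carries glutamine, read 4.77, 4.64 and 4.76 at the implantation site (1416629_at). Between the sites it read 4.93, 4.82 and 4.84, above all implantation arrays, but the difference was −0.14 (SE 0.083, limma adjusted p = 0.490, 95% interval −0.32 to 0.037).

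Of the sodium-coupled Slc38 carriers, Slc38a1 (SNAT1) read 6.51, 6.30 and 6.42 at the implantation site and 6.43, 6.08 and 6.41 between the sites (1415903_at). It had the largest SE of the 14 (0.11), with interimplantation array 2 below the other 5 arrays, and a difference of 0.11 (limma adjusted p = 0.733, 95% interval −0.13 to 0.34). Slc38a2 (SNAT2), whose transcript is known to be raised when cells lack amino acids, read 3.01, 3.25 and 3.18 against 3.12, 3.13 and 3.29 (1426722_at; difference −0.032, SE 0.092, limma adjusted p = 0.922).

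Slc38a4 (SNAT4), a carrier of placenta and liver, had the most negative value. Its probe set 1428111_at read 2.10, 2.19 and 2.24 at the implantation site and 2.54, 2.28 and 2.36 between the sites, without overlap. The difference was −0.22 (SE 0.092, 95% interval −0.42 to −0.018), with an unadjusted p of 0.0352 and a limma adjusted p of 0.308. Its mean was below the median Bacillus control (2.68), which marks bacterial sequences absent from hamster tissue, so this signal may be that of probes without a matching transcript. Whether RNA of these bacterial sequences was added to the samples was not checked. The other probe set, 1448889_at, read 3.03, 3.20 and 3.21 at the site and 3.18, 3.32 and 3.19 between the sites, with overlapping groups (−0.087, SE 0.088, limma adjusted p = 0.730).

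Groups that did not overlap were thus seen in 3 of the 14 probe sets (21.4%), 1 of Slc1a4 higher and those of Slc1a5 and Slc38a4 lower, against 19.3% of all probe sets. That share is near the background. Across arrays, the 14 probe sets deviated from their own means by a median of −0.050, −0.046 and 0.019 on implantation arrays 1, 2 and 3 and by 0.031, −0.042 and 0.085 on interimplantation arrays 1, 2 and 3. The ranges of the 2 groups overlapped. Array 3 of either group was the lowest in 0 of the 14 probe sets and the highest in 4.

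**Figure D2:**
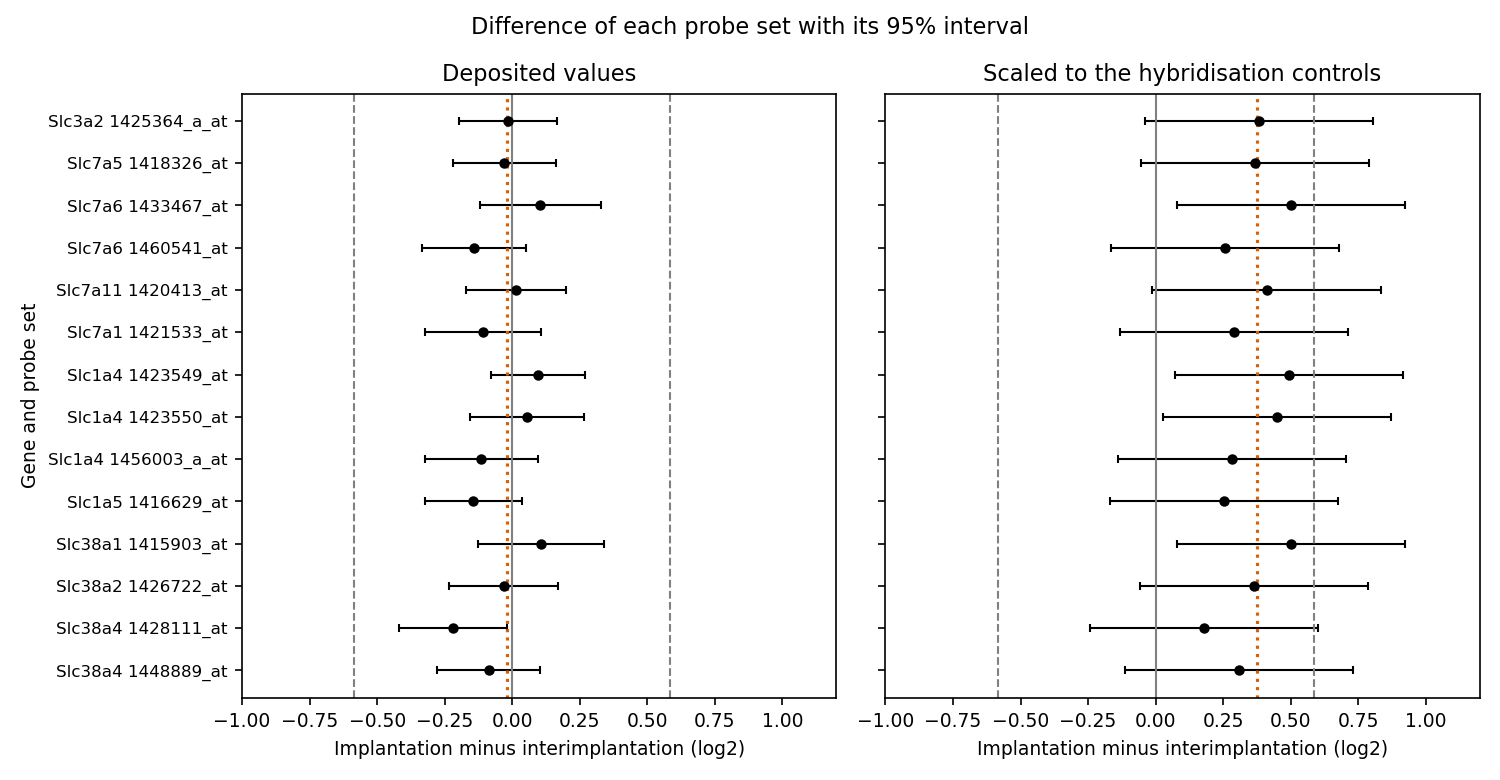
Difference of each transporter probe set (vertical axis), implantation minus interimplantation in log2 units (horizontal axis), with its 95% interval from limma. Dashed lines mark 1.5-fold and the dotted line the median of all probe sets (−0.020 for the deposited values, 0.38 with scaling to the hybridisation controls); the transporters lie around it on both sides.

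The sign of a difference depends on how the arrays are scaled. The hybridisation controls, RNAs added in equal amounts to every sample, averaged 6.64 ± 0.17 at the implantation site and 7.03 ± 0.27 between the sites (SD, n = 3 each), with overlap between the groups. Shifting each array to the same control level moved the median of all probe sets from −0.020 to 0.38. All 14 transporter differences were then positive, from 0.18 to 0.50, where 9 of them had been negative. None was called (limma adjusted p from 0.116 to 0.439), but every SE rose to 0.22, and intervals then reached up to 0.92. Those of Slc7a6 (1433467_at, from 0.079), Slc1a4 (1423549_at, from 0.071, and 1423550_at, from 0.029) and Slc38a1 (from 0.080) did not include 0. The remaining intervals did. The scaling adds the same amount to every difference, so it says nothing on the place of the transporters among other genes. The limits of 1.5-fold given above held for 0 of the 14 intervals with that scaling. They held for 13 of 14 when the mean of these controls entered the fit as a covariate, an alternative added after seeing the data. The exception was Slc38a1, which moved from 0.11 to 0.36 (SE 0.12, limma adjusted p = 0.203, 95% interval 0.092 to 0.63).

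Against the brightest of 27 Bacillus controls (5.79) most of these signals were low. Only Slc7a5 and Slc38a1 had a mean above it, 2 of 14 probe sets, as did 19.1% of all probe sets. The median Bacillus control (2.68) was a lower mark: 1 of the 14 was not above it, beside 2159 of all 22626. These controls mark a level without a target only if no RNA of their sequences was added, which was not checked. Of the 14, 7 were brighter than the median of all probe sets. A low signal on this array does not mean that the transcript was absent, since hamster RNA can differ from the mouse sequence of the probes. All 10 symbols are also symbols of the hamster annotation in RefSeq (BCM_Maur_2.0).

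Other genes that carry or sense amino acids were taken from 5 lists, with the probe set of the highest mean standing for each gene. Among genes counted this way, 1.36% rose and 1.18% fell at the implantation site over all 12393. Of 29 other amino acid transporters measured, 0 rose and 1 fell, with 24 negative differences and a median of −0.085. Over all probe sets, 56.5% lay below 0 and 43.5% above it. The one that fell was Slc7a9, the cystine and cationic amino acid exchanger known from kidney and gut, which read 4.02, 3.73 and 4.02 at the site and 4.38, 4.26 and 4.42 between the sites. Its difference was −0.44 (SE 0.099, limma adjusted p = 0.0420). Its mean (4.14) was below the brightest Bacillus control (5.79), which 18296 of all 22626 probe sets did not exceed. The call was lost without any single array (limma adjusted p from 0.0585 to 0.148), and with scaling to the hybridisation controls the difference was −0.039 (limma adjusted p = 0.866).

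The heavy chain partner of Slc7a9, Slc3a1, which was singled out after its values were seen, read 4.01, 4.15 and 4.19 at the site and 4.32, 4.47 and 4.22 between the sites (−0.22, SE 0.093, limma adjusted p = 0.303). The light chains that pair with Slc3a2 and were not among the 10, Slc7a7, Slc7a8 and Slc7a10, did not pass. Slc7a7 and Slc7a8 were each at 0.13 (limma adjusted p = 0.536 and 0.705), and Slc7a10, named after its values were seen, was at −0.097 (limma adjusted p = 0.756).

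Genes of the response to amino acid shortage gave 0 higher and 1 lower of 27 measured, with a median of −0.0019. Atf4, the transcription factor of that response and a regulator of Slc3a2, Slc7a5, Slc7a11 and Slc38a2, was at 0.093 by its brightest probe set (SE 0.086, limma adjusted p = 0.704), and its 3 probe sets ran from −0.039 to 0.093. Its target Asns, asparagine synthetase, was at 0.12 (SE 0.12, limma adjusted p = 0.716).

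Eif2ak4, which encodes GCN2, the kinase that senses uncharged tRNA, fell by 0.52 (SE 0.12, limma adjusted p = 0.0411), from 4.72, 4.86 and 5.18 between the sites to 4.40, 4.52 and 4.29 at the site. Its call was lost without any array but interimplantation array 1 (limma adjusted p from 0.0805 to 0.183), and the difference was −0.12 with scaling to the hybridisation controls (limma adjusted p = 0.603).

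Aminoacyl-tRNA synthetases and their scaffold proteins, which load amino acids onto tRNA, gave 2 higher and 0 lower of 21, with 19 positive differences and a median of 0.11. Over the arrays, the mean signal of these genes was 5.45 to 5.51 at the implantation site and 5.28 to 5.35 between the sites. That of the other amino acid transporters did not overlap either, in the opposite direction (4.64 to 4.66 at the site, 4.71 to 4.75 between the sites). In the remaining related lists the array means overlapped. Kars, the lysyl-tRNA synthetase, rose by 0.46 (SE 0.099, limma adjusted p = 0.0358), from 5.84, 5.72 and 5.78 to 6.38, 6.30 and 6.03. Farsb, the beta subunit of phenylalanyl-tRNA synthetase, rose by 0.41 (SE 0.092, limma adjusted p = 0.0415) by its brightest probe set. Of its 4 probe sets, all positive from 0.034 to 0.41, 1 more was called (1435103_x_at, limma adjusted p = 0.0302). Leaving out implantation array 1 or 2 or interimplantation array 2 or 3 ended the call of Kars (limma adjusted p from 0.102 to 0.180). The call of the brightest Farsb probe set ended without implantation array 1 or 3 or interimplantation array 2 or 3 (limma adjusted p from 0.0682 to 0.208). With the replicate number as a block it was not called either (limma adjusted p = 0.0575). The other called Farsb probe set kept its call with the block (limma adjusted p = 0.0372) and lost it without any array but interimplantation array 1 (limma adjusted p from 0.0679 to 0.118).

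Of 28 genes of amino acid sensing by mTORC1, 1 rose and 0 fell, with a median of −0.013. The one that rose was Sec13 (0.50, SE 0.10, limma adjusted p = 0.0295), a part of the GATOR2 complex that also serves in the COPII coat and the nuclear pore. It read 6.02, 5.96 and 5.98 at the site and 5.53, 5.26 and 5.68 between the sites. Its call was lost without implantation array 1, 2 or 3 or interimplantation array 2 (limma adjusted p from 0.0757 to 0.138). The mean of Sec13 (5.74), like those of Eif2ak4 (4.66) and the called Farsb probe sets (5.73 and 3.64), was below the brightest Bacillus control (5.79). That of Kars (6.01) was above it. Of 19 genes of cystine and glutathione metabolism, 0 rose and 0 fell in limma, with 4 at an unadjusted p under 0.05 (14.0% of all probe sets) and a median of −0.048.

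**Figure D3:**
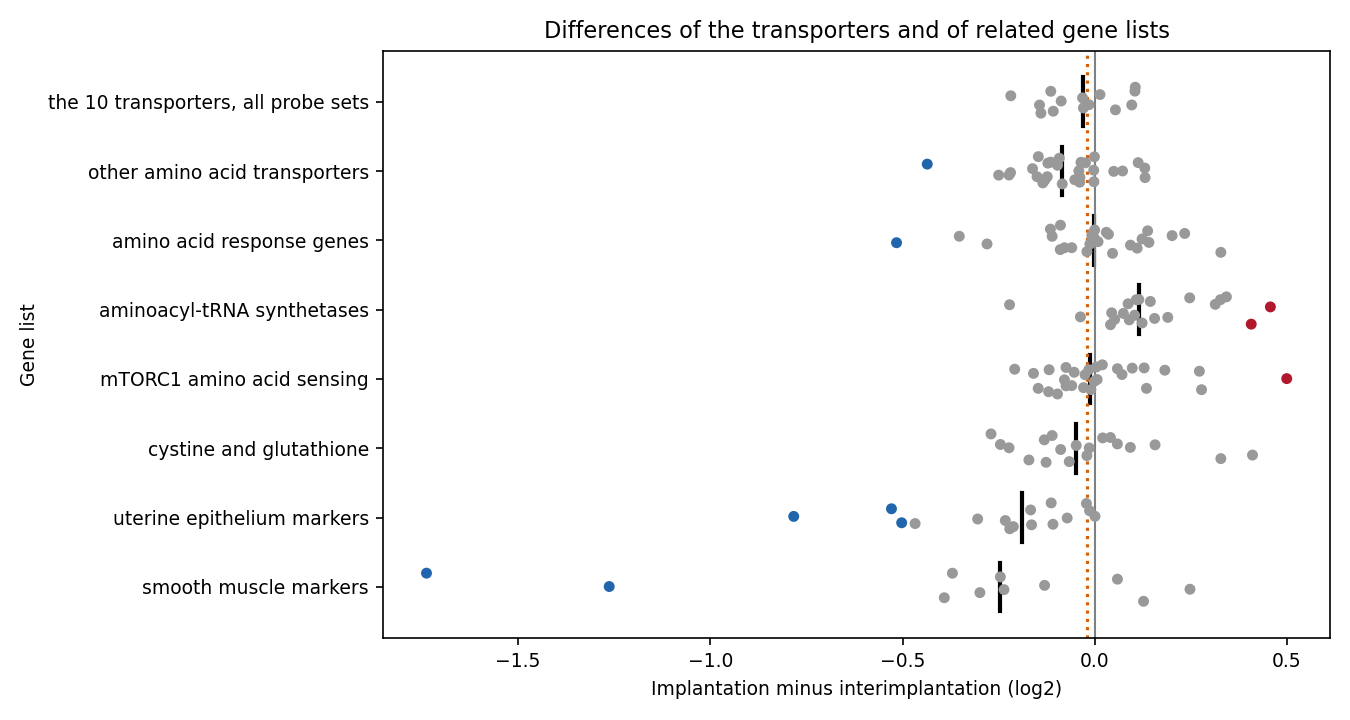
Difference of each gene (horizontal axis, log2, implantation minus interimplantation) for the 14 transporter probe sets, 5 lists of related genes and 2 lists of cell type markers (vertical axis). Red points were called higher and blue points lower in limma, the black bar is the list median and the dotted line the median of all probe sets (−0.020); the transporters gather around that line, and the tRNA synthetases lie mostly to its right.

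Some markers of epithelium and smooth muscle fell at the implantation site. Of 16 markers of uterine epithelium, 3 fell and 15 of the differences were negative, with a median of −0.19 and a mean signal over the arrays of 5.06 to 5.14 at the site and 5.31 to 5.39 between the sites. Of 11 smooth muscle markers 2 fell, with 8 negative and 3 positive differences, a median of −0.25 and a mean signal of 5.25 to 5.47 at the site and 5.65 to 5.88 between the sites. Above the brightest Bacillus control were 6 of the 16 and 4 of the 11. Of the markers of stroma (13), endothelium (11), leukocytes (13), erythroid cells (5) and trophoblast and embryo (11), none was called in limma. Unadjusted p-values under 0.05 were found in 3, 1, 1, 1 and 1 of them, beside 14.0% of all probe sets. Negative differences numbered 10, 7, 7, 3 and 9, in the same order. The trophoblast and embryo marker was Krt7, also on the epithelial list. Epithelial and smooth muscle markers had 8 and 7 such p-values. Mean signals of trophoblast and embryo markers were also lower at the site (4.20 to 4.24) than between the sites (4.28 to 4.36). Those of erythroid markers were too (4.89 to 4.98 against 4.99 to 5.04). Those of stroma, endothelium and leukocytes overlapped. The part of these markers in the differences of the transporters, of Slc7a9 and of the other genes named here was not tested.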

How the data were processed

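The deposited table held the authors' log2 signals of 22690 probe sets on 6 arrays. The submitters' processing notes name Partek 6.6 and RMA (background correction, quantile normalization and a summary over the probes of a set). The base of the logarithm is not stated there and was taken as 2 from the range of the values, and further steps are not given in the sources used here. After removal of 64 control probe sets, 22626 were tested without a filter on level. Of these, 20380 had 1 gene symbol, 691 several and 1555 none in the platform annotation.

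The two-sided comparison used limma 3.58.1 (R 4.3.3; lmFit and eBayes with group as the only term), with Benjamini-Hochberg adjustment over the 22626. The calculation was tested on simulated data. All 14 member probe sets are named. Of each other list, called genes are named (up to 6), and Atf4, Asns, Slc7a7 and Slc7a8 in any case. The members, lists and alternatives were chosen with earlier results of these data known. Alternatives were a replicate block, repeated quantile normalization, scaling to 18 hybridisation controls, only the probe sets brighter than the median, no _s_at or _x_at probe sets, a trended and robust variance, array weights and each array left out. The control level as a covariate was added after seeing the data. The number of arrays limits the precision.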

Additional observations from a re-analysis of the deposited data

How the results depend on the processing

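In all 14 alternatives, 0 of the transporter probe sets tested were called in either direction. Among the probe sets brighter than the median only 7 of the 14 could be tested. Signs were less stable. With scaling to the hybridisation controls the 9 negative differences became 0.38 for Slc3a2, 0.29 for Slc7a1, 0.37 for Slc7a5, 0.26 for Slc7a6 (1460541_at), 0.28 for Slc1a4 (1456003_a_at), 0.25 for Slc1a5, 0.37 for Slc38a2, and 0.18 and 0.31 for Slc38a4 (1428111_at and 1448889_at), because that scaling raises every difference alike. With the control level as a covariate, added after seeing the data, Slc3a2 was at 0.036, Slc7a1 at 0.041, Slc7a5 at 0.12 and Slc1a4 (1456003_a_at) at 0.033. With repeated quantile normalization Slc3a2 was at 0.014. Leaving out 1 array turned the sign of 6 probe sets, whose values then ran from −0.044 to 0.034 for Slc3a2, −0.092 to 0.033 for Slc7a5, −0.035 to 0.068 for Slc7a11, −0.016 to 0.15 for Slc1a4 (1423550_at), −0.0071 to 0.17 for Slc38a1 and −0.084 to 0.036 for Slc38a2. The cause of the reversals was not tested.

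Of the related lists, the count of other transporters that fell (1) was 0 with scaling to the controls, among the brighter probe sets, with the covariate and without any single array (0 to 0). Response genes counted 1 higher and 0 lower with the scaling and 0 lower with the covariate, and 0 to 2 lower with an array left out. Synthetases counted 5 higher with the scaling, 0 with the covariate and 0 to 2 with an array left out. For mTORC1 sensing the count was 0 with the covariate and 0 to 1 with an array left out. Cystine and glutathione genes counted 1 higher with repeated quantile normalization, among the brighter probe sets and with a trended and robust variance, and 2 with the scaling. Of the other genes named, Slc3a1 turned to 0.17 with the scaling and Slc7a8 to −0.18 with the covariate. The covariate also ended the calls of Slc7a9, Eif2ak4, Kars, Farsb (both probe sets) and Sec13 (limma adjusted p from 0.0501 to 0.416).

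With the replicate number as a block, 0 transporter probe sets were called, synthetases counted 1 higher, and the other calls on the 5 lists did not change. The labels and the design text do not state whether same-numbered arrays share an animal. The deviations of same-numbered arrays from their group means correlated at −0.090, 0.071 and −0.028 over all probe sets, which shows no visible shared effect of the number and does not settle whether the arrays are paired.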
